A study of Mus musculus with 26 samples.

Results

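The genes Carm1, Neat1, Prdm14 and Sox21 were followed in single blastomeres of mouse 8-cell embryos, and they were chosen by name from their known roles in early cell fate. All 4 were found among the 55487 genes of the scRR-seq-RNA table. The scRR-seq method reads the RNA and the DNA of the same cell, because beads hold the chromatin of the lysed blastomere while the RNA in the supernatant is made into a total RNA library. Cells came from 2 untreated embryos made by in vitro fertilisation of C57BL/6 mice. Embryo 1 gave cells 1, 6 and 7, and embryo 2 gave cells 2, 3, 5, 6, 7 and 8, which makes 9 cells in all. Each embryo is 1 biological replicate, so no p-value was computed and every SD describes the spread between the sister cells of an embryo, which holds technical variation too.

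Blastomeres of an early embryo look alike, yet they are known to lean towards different fates. CARM1 is an arginine methyltransferase that marks histone H3 and favours the pluripotent lineage. NEAT1 is the long noncoding RNA that builds paraspeckles, the nuclear bodies to which CARM1 is recruited. PRDM14 is a zinc finger protein that works with CARM1 and represses differentiation genes, and SOX21 is a SOX-family repressor whose gene is a target of this pathway and which holds down the trophectoderm factor CDX2.

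The cells were prepared in 3 µl of lysis buffer (scRR3) or in 1 µl (scRR1), as given by the sample list of the study. Embryo 1 cell 1 and embryo 2 cells 2 and 3 were scRR3 cells, and the other 6 were scRR1 cells. Between 12411 and 13319 genes exceeded 1 TPM in the scRR3 cells and between 11058 and 11960 in the scRR1 cells. TPM, the share of a transcript in the RNA of a cell after correction for transcript length, sums to a fixed total and keeps no read depth. Of 8 blastomere markers, 8 had a mean above 1 TPM, and Dppa3, a maternal factor of the egg, was at 1138 to 2169 TPM. Not every marker was found in each cell, since 1 of the 8 ran from 0 to 42.5 TPM and exceeded 1 TPM in 7 of the 9 cells. Of 8 cumulus and granulosa markers, 5 were listed at 0 in every cell, and the highest value was 6.13 TPM for Ptx3 in embryo 2 cell 6. Of 6 sperm markers, 3 were listed at 0 throughout and the highest value was 1.62 TPM.

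The sequences that distinguish the transcripts described here were read from the mouse genome (GRCm38.p6, the assembly of mm10). The first is exon 15 of Carm1, an alternative exon of 69 bases at chr9:21587851-21587919 on the plus strand, shown in capitals between 20 intron bases on each side. It is shown because sister cells differed in whether their Carm1 RNA was assigned to a transcript with or without it. Its length keeps the reading frame, and it encodes the part of CARM1 that holds the automethylation site of the enzyme.
Carm1 exon 15: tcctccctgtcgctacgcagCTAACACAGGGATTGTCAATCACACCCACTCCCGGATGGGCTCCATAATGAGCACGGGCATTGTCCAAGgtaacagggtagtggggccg

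The second is the 3′ end of the short Neat1 RNA (ENSMUST00000174287.1) at chr19:5842277-5842406 on the minus strand. It is shown because nearly all Neat1 signal was assigned to this polyadenylated form. The only AATAAA polyadenylation signal in this window is in capitals, and it ends 14 bases before the annotated end of the transcript, which is base 100 of the 130 bases printed.
Short Neat1 3′ end: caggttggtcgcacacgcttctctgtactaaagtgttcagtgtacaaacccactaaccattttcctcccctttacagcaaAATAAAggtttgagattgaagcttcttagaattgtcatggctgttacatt

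The first question was how far sister cells differed in the enzyme, Carm1 (ENSMUSG00000032185.15, protein coding, chr9:21546894-21592623, plus strand). In embryo 1, Carm1 was at 40.2 TPM in cell 1, 9.17 in cell 6 and 9.34 in cell 7. In embryo 2, it was at 39.1 TPM in cell 2, 19.3 in cell 3, 12.7 in cell 5, 15.2 in cell 6, 23.3 in cell 7 and 9.14 in cell 8. Carm1 RNA was therefore present in 9 of 9 cells, and 1 cell of each embryo stood near 40 TPM while the lowest cells stood near 9.

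The highest Carm1 cell was 4.38 times the lowest in embryo 1 and 4.28 times the lowest in embryo 2. Both highest cells were scRR3 cells. On the log2(TPM + 1) scale, scRR3 cells exceeded scRR1 cells by 2.01 in embryo 1 and by 0.90 in embryo 2, and the lysis volume and the cell cannot be told apart in embryo 1, where 1 cell was scRR3. Among the 4 scRR1 cells of embryo 2 alone, Carm1 still ran from 9.14 to 23.3 TPM.

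The mean level of Carm1 was 19.6 ± 17.9 TPM in embryo 1 (SD, n = 3 cells) and 19.8 ± 10.7 TPM in embryo 2 (SD, n = 6 cells). The difference of 0.21 on the log2(TPM + 1) scale was smaller than the pooled SD between sister cells of 0.85. Carm1 also shares 3942 bases at its 3′ end with Yipf2 on the opposite strand, and the use of strand in the authors' counting is not given in the sources used here. Yipf2 spans chr9:21588682-21592828, and the 2 transcripts with most of the Carm1 TPM end at 21589467 and 21589487. Most of the shared stretch lies past these ends, where only a transcript with 3.30% of the Carm1 TPM reaches. Yipf2 reached 12.97 TPM in embryo 2 cell 2, the cell with the highest Carm1 of that embryo, and 8.39 TPM in embryo 1 cell 7, where Carm1 was low.

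Neat1 (ENSMUSG00000092274.3, long intergenic noncoding RNA, chr19:5824708-5845478, minus strand) varied more than Carm1. In embryo 1, Neat1 was at 2.58 TPM in cell 1, 22.3 in cell 6 and 10.4 in cell 7. In embryo 2, it was at 9.44 TPM in cell 2, 3.29 in cell 3, 5.00 in cell 5, 23.4 in cell 6, 29.9 in cell 7 and 3.10 in cell 8. Thus 3 cells exceeded 20 TPM, and 3 others were below 4 TPM, with high and low cells in both embryos.

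The ratio of the highest to the lowest Neat1 cell was 8.65 in embryo 1 and 9.63 in embryo 2. The embryo means were 11.8 ± 9.93 TPM (SD, n = 3 cells) and 12.3 ± 11.5 TPM (SD, n = 6 cells), and the embryo difference of -0.02 on the log2(TPM + 1) scale was far below the pooled SD of 1.29. In contrast to Carm1, Neat1 was lower in scRR3 than in scRR1 cells, by 2.19 on this scale in embryo 1 and by 0.80 in embryo 2. Since scRR-seq-RNA was made from the supernatant, RNA that stayed with the bead-bound nuclear material was not read, and its part in these values was not tested. Malat1, another nuclear long noncoding RNA, ranged from 122 to 463 TPM, and its 3 highest cells were the 3 highest Neat1 cells.

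Prdm14 (ENSMUSG00000042414.7, protein coding, chr1:13113457-13127163, minus strand) was close to the limit of the table. It was at 1.23 TPM in embryo 1 cell 1, 1.22 in embryo 2 cell 8, 0.52 in embryo 2 cell 3 and 0.27 in embryo 2 cell 2, and it was listed at 0 in the other 5 cells. Every scRR3 cell was thus above 0, whereas embryo 2 cell 8 was the only scRR1 cell that was. The reads of all cells had been set to a common number, but the reads behind a value are not kept, and a value of 0 does not show that the RNA was absent. The means were 0.41 ± 0.71 TPM in embryo 1 (SD, n = 3 cells) and 0.335 ± 0.481 TPM in embryo 2 (SD, n = 6 cells), and Prdm14 was the only gene of the 4 whose mean fell below 1 TPM.

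Sox21 (ENSMUSG00000061517.8, protein coding, chr14:118233232-118237030, minus strand) had the widest range of the 4 genes on the log2(TPM + 1) scale. In embryo 1, Sox21 was at 20.9 TPM in cell 1, 5.25 in cell 6 and 0.72 in cell 7. In embryo 2, it was listed at 0 in cell 2, and it was at 15.5 TPM in cell 3, 1.97 in cell 5, 5.24 in cell 6, 2.88 in cell 7 and 17.9 in cell 8. The 3 cells above 15 TPM were separated from the other 6, of which the highest was at 5.25 TPM.

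The mean level of Sox21 was 8.96 ± 10.6 TPM in embryo 1 (SD, n = 3 cells) and 7.26 ± 7.56 TPM in embryo 2 (SD, n = 6 cells), and the embryo difference of -0.22 on the log2(TPM + 1) scale was smaller than the pooled SD of 1.67. The lysis volume did not order Sox21 the same way in both embryos, since scRR3 cells were higher by 2.74 in embryo 1 and lower by 0.58 in embryo 2. In embryo 2, 1 of the 2 scRR3 cells was listed at 0 and the other was the second highest of the 6 cells. The start of Sox21 shares 799 bases with Gm4675, a long intergenic noncoding RNA gene on the opposite strand. In embryo 1, Gm4675 was at 34.4 TPM in cell 1, 13.7 in cell 6 and 14.4 in cell 7. In embryo 2, it was at 24.8 TPM in cell 2, 59.2 in cell 3, 21.4 in cell 5, 11.7 in cell 6, 22.1 in cell 7 and listed at 0 in cell 8. The 2 highest Gm4675 cells were thus among the 3 highest Sox21 cells, and the third of these was the cell where Gm4675 was listed at 0. The part of Gm4675 reads in the Sox21 values was not tested.

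**Figure D1:**
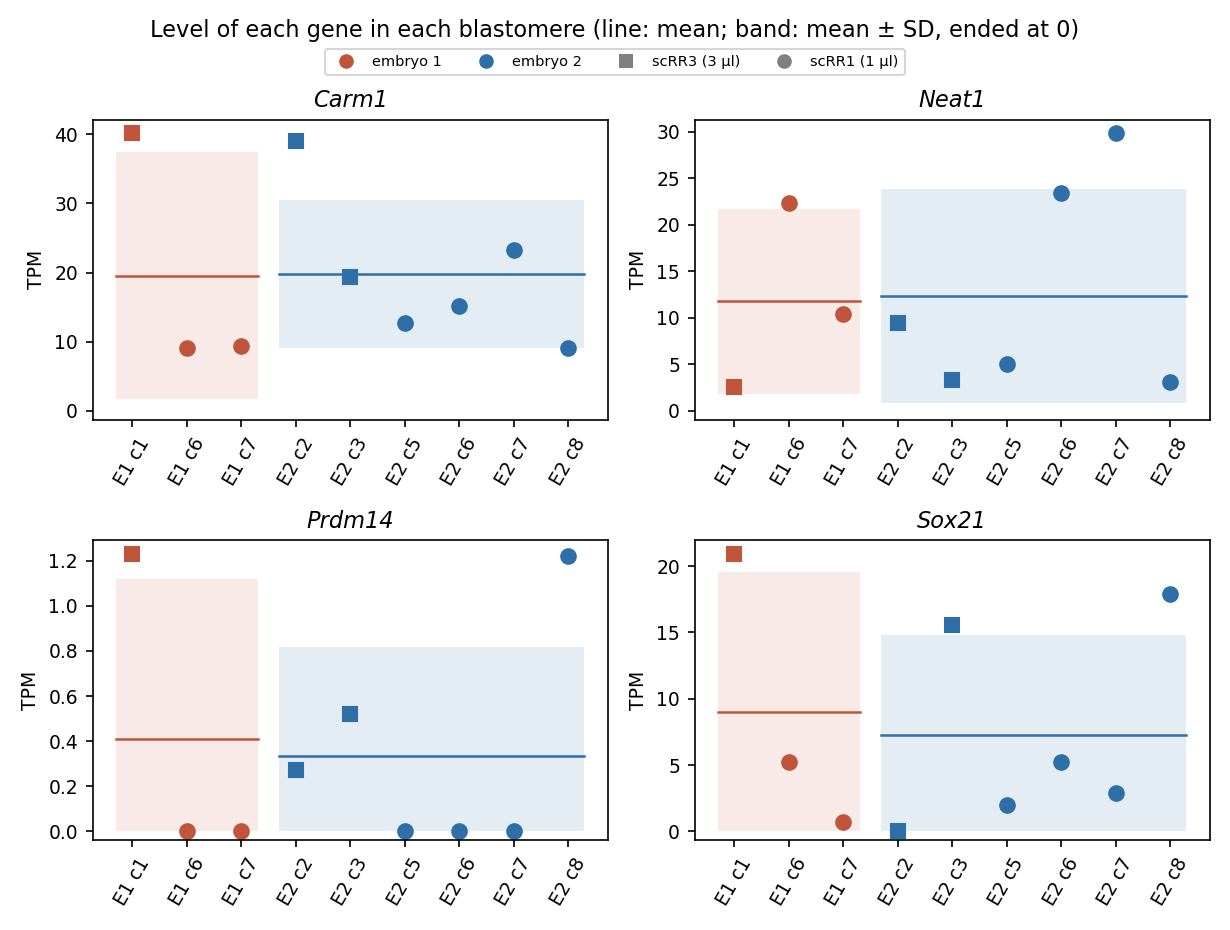
TPM of Carm1, Neat1, Prdm14 and Sox21 in each of the 9 blastomeres (E, embryo; c, cell), with squares for scRR3 and circles for scRR1, lines for the mean over the cells of an embryo and bands for the SD between them, ended at 0. The embryo means lie close together for each gene, while single cells reach from 9.14 to 40.2 TPM for Carm1, from 2.58 to 29.9 for Neat1, from 0 to 1.23 for Prdm14 and from 0 to 20.9 for Sox21.

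By mean TPM in embryo 2, the order was Carm1, Neat1, Sox21 and Prdm14, and each neighbour in this order differed from the next by less than the larger of their SDs between cells. The 250 bases upstream of the Sox21 start were examined for short motifs, because Sox21 was the only gene of the 4 with an entry in the promoter table from RefSeq (GRCm38.p6). The window is chr14:118237031-118237280 on the minus strand and is printed to show the region from which Sox21, the gene with the highest SD of log2(TPM + 1), is transcribed.
Sox21 upstream region: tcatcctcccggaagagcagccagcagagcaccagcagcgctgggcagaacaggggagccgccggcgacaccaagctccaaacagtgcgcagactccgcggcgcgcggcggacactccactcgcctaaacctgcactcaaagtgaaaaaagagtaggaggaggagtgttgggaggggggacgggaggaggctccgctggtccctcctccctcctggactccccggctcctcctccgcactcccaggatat

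On both strands of this window, no match was found to ACAAAG or ACAATG (SOX-type cores), ATGCAAAT (the octamer), GGGCGG (the GC box) or TATAAA (the TATA box). These motifs occurred in 16.5%, 10.7%, 1.60%, 32.7% and 12.4%, respectively, of the 32851 windows of the same length in the table. The absence of a match says only that these letters are not in this window.

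To place the spread between sister cells among other genes, the range of log2(TPM + 1) was computed for the 13648 genes with a mean above 1 TPM, which included Carm1, Neat1 and Sox21 but not Prdm14. A range of at least 2 is called a 4-fold range in what follows. Because 1 is added to each TPM, it asks for more than a 4-fold ratio of TPM between the highest and the lowest cell. Such a range was found over the 6 cells of embryo 2 for Neat1 (range 2.91) and Sox21 (4.24), while Carm1 (1.98) fell just short of it. The same held for 53.1% of the genes tested, so 2 of 3 is near the share of all genes. Over the 3 cells of embryo 1, all 3 reached it, with ranges of 2.02 for Carm1, 2.70 for Neat1 and 3.67 for Sox21, beside 29.3% of the genes tested. Of these, Carm1 was just above the limit, and 1 scRR3 cell was set against 2 scRR1 cells.

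The SD of log2(TPM + 1) between the sister cells of embryo 2 was 0.69 for Carm1, 1.26 for Neat1, 1.60 for Sox21 and 0.46 for Prdm14, and the median over the genes tested was 0.80. Because spread falls with level, each gene was also set among genes whose mean lay within 0.5 on the same scale. For Carm1, 50.6% of 1808 such genes had a smaller SD, which puts it in the middle. For Neat1, 79.8% of 1927 genes had a smaller SD, and for Sox21, 85.4% of 2043 genes did. In embryo 1, 82.7% of genes of like level had a smaller SD for each of Carm1, Neat1 and Sox21. These positions are descriptions of 2 embryos and carry no test.

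**Figure D2:**
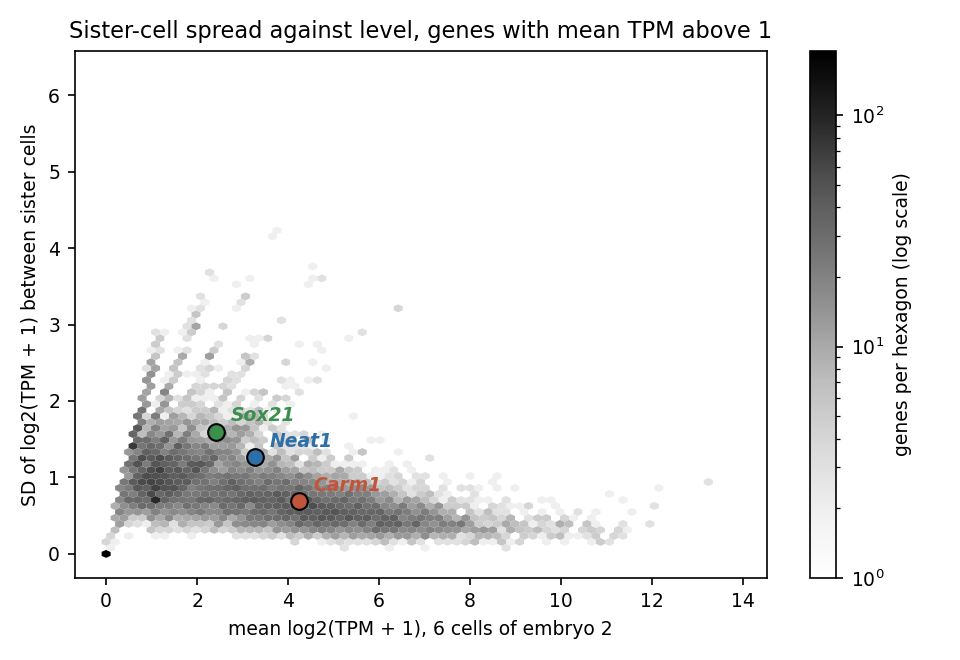
SD of log2(TPM + 1) between the 6 cells of embryo 2 (vertical) against the mean of log2(TPM + 1) over these cells (horizontal) for the 13648 genes with a mean above 1 TPM, with grey hexagons shaded by the number of genes on a log scale. Carm1 (SD 0.69) lies within the bulk of genes of its level, whereas Neat1 (1.26) and Sox21 (1.60) lie in the upper part.

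Next, the question was whether the genes varied together from cell to cell. The 3 cells with the highest Sox21, embryo 1 cell 1 and embryo 2 cells 3 and 8, were also the 3 cells with the highest Prdm14 and the 3 cells with the lowest Neat1. In these cells Sox21 was at 15.5 to 20.9 TPM, Prdm14 at 0.52 to 1.23 TPM and Neat1 at 2.58 to 3.29 TPM. In the other 6 cells Sox21 was at 0 to 5.25 TPM, Prdm14 at 0 to 0.27 TPM and Neat1 at 5.00 to 29.9 TPM. Carm1 did not separate them, with 9.14 to 40.2 TPM in the 3 cells and 9.17 to 39.1 TPM in the others.

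This grouping was noticed after the values had been seen. It spanned both embryos but was uneven between the lysis volumes. Embryo 1 cell 1 and embryo 2 cell 3 were scRR3 cells, and embryo 2 cell 8 was the scRR1 cell among the 3. Of the other 6 cells, embryo 2 cell 2 alone was an scRR3 cell. The part of the lysis volume in the grouping was not tested. Of the 13648 genes tested, 0.769% were higher in each of these 3 cells than in each of the other 6, and 0.33% were lower in each of them, as Neat1 was. Sox21 defined the cells, so its own separation is not a result, and Prdm14 was below the filter.

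Across the 9 cells, Pearson's r of log2(TPM + 1) was -0.79 for Neat1 and Prdm14, -0.49 for Neat1 and Sox21, and 0.71 for Prdm14 and Sox21. When each cell was left out in turn, these values stayed between -0.90 and -0.73, between -0.58 and -0.35, and between 0.60 and 0.87. Within the 6 cells of embryo 2 they were -0.72, -0.43 and 0.61, and within the 6 scRR1 cells -0.68, -0.28 and 0.80. Among the scRR1 cells Prdm14 was above 0 in embryo 2 cell 8 alone, so the scRR1 values that involve Prdm14 rest on that cell. The cells shared embryo and library preparation, and 5 of the 9 values of Prdm14 were 0, so these coefficients are descriptions.

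The relation of Carm1 to its partner RNA changed with the set of cells. Pearson's r of Carm1 and Neat1 was -0.16 over the 9 cells but 0.40 over the 6 cells of embryo 2, and it ranged from -0.36 to 0.13 when each cell was left out in turn. With Prdm14, r of Carm1 was 0.30 over 9 cells and -0.36 in embryo 2, and with Sox21 it was -0.04 and -0.71. Thus the relations of Carm1 to Neat1 and to Prdm14 had opposite signs over the 9 cells and within embryo 2. Within the 6 scRR1 cells, r of Carm1 was 0.56 with Neat1, -0.39 with Prdm14 and -0.19 with Sox21. These signs are those of embryo 2, with which the scRR1 cells overlap. Carm1 was higher and Neat1 lower in scRR3 cells, and the part of the lysis volume in r over the 9 cells was not tested.

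**Figure D3:**
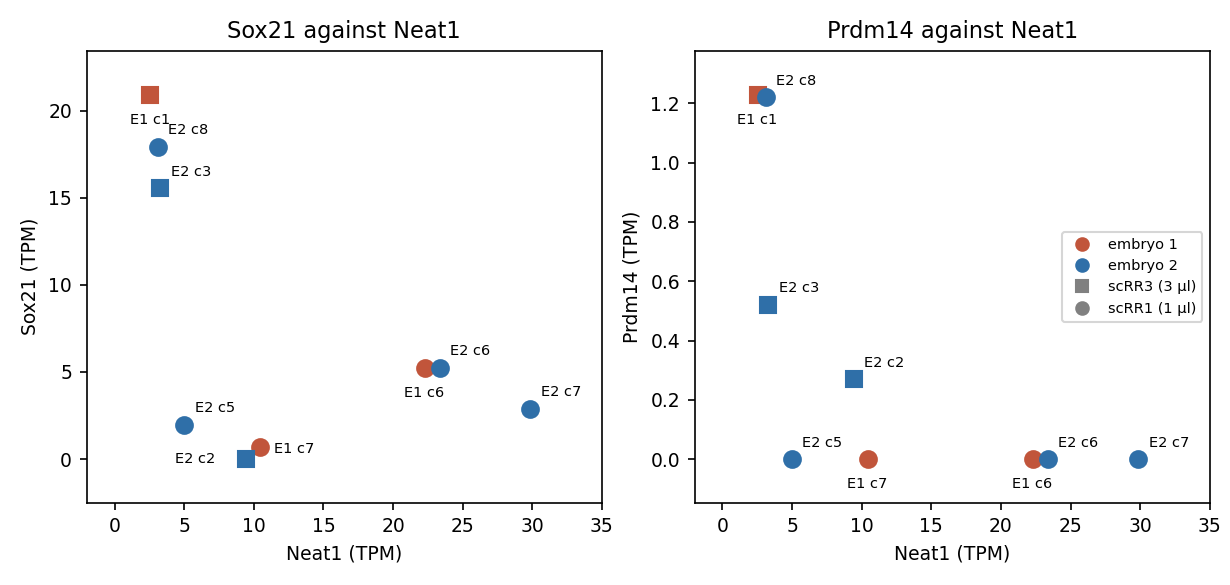
Sox21 (left) and Prdm14 (right) against Neat1, all in TPM, with 1 point per blastomere, red for embryo 1 and blue for embryo 2, squares for scRR3 and circles for scRR1. Embryo 1 cell 1 and embryo 2 cells 3 and 8 lie at the upper left, with Neat1 at 2.58 to 3.29 TPM, and the other 6 cells have Sox21 at or below 5.25 TPM and Prdm14 at or below 0.27 TPM.

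Genes with the most similar pattern over the 9 cells were then listed for each gene above 1 TPM in at least 5 cells, among 8780 genes with a mean above 5 TPM. The closest to Carm1 were Gprc5c (r = 0.96), Diaph1 (0.96), which encodes an actin-nucleating formin, and Emc1 (0.95), a subunit of the complex that inserts proteins into the endoplasmic reticulum membrane. The closest to Neat1 were Snora7a (0.89), a small nucleolar RNA, Serac1 (0.89) and Fam98b (0.88). The closest to Sox21 were Gm25291 (0.88), a small nucleolar RNA, Cadm1 (0.86), a cell adhesion molecule, and Fez2 (0.86). With 9 points and 8780 genes, values of this size are the top of a long list and carry no test.

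At the level of transcripts, Carm1 RNA was assigned mainly to the full form with 16 exons (ENSMUST00000034703.14) or to a form that skips exon 15 (ENSMUST00000115395.9). Over the 9 cells the full form held 59.9% of the Carm1 TPM and the skipping form held 25.6%. The skipping form took 100% of the signal in embryo 1 cells 6 and 7 and in embryo 2 cell 8, at 9.17, 9.34 and 9.14 TPM. These are the 3 cells with the lowest total Carm1. Both forms were seen together in 2 cells. In embryo 1 cell 1 the full form was at 29.0 TPM and the skipping form at 5.87 TPM, and in embryo 2 cell 7 they were at 8.78 and 11.8 TPM.

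In the other 4 cells of embryo 2, namely cells 2, 3, 5 and 6, the skipping form was listed at 0 while the full form was at 30.6, 12.7, 12.7 and 12.6 TPM. A form that reads from exon 15 into the following intron (ENSMUST00000115394.7) was seen in 2 cells, both scRR3, at 2.76 TPM in embryo 1 cell 1 and 7.18 TPM in embryo 2 cell 2. In the scRR3 cells 5.95% of Carm1 TPM was assigned to the skipping form, compared with 50.1% in the scRR1 cells. The study describes scRR1 embryo libraries as weighted to the 3′ part of RNAs, and the part of this in the assignment was not tested.

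Cells often differed in the leading transcript, here compared over both embryos and both lysis volumes together rather than between sister cells. Among 6416 genes with several transcripts and more than 1 TPM in each cell, the transcript with the highest TPM was not the same in all 9 cells for 65.3%, and Carm1 was among them. The reads that cover exon 15 are not kept in the tables, so the assignment rests on the estimates by RSEM.

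Neat1, in contrast, had the same leading transcript in all 9 cells. The short form of 3004 bases, whose 3′ end is printed above, held 99.4% of the Neat1 TPM and reached 29.8 TPM in embryo 2 cell 7. The long form of 20771 bases (ENSMUST00000173672.1), which is the scaffold of paraspeckles, did not exceed 0.15 TPM in any cell and was listed at 0 in 3 of the 9 cells. The short form lies within the start of the long form, so reads from the shared part can be assigned to either. Small RNA genes annotated inside this shared part also drew signal in embryo 1 cell 1, with Gm28006 at 10.2 TPM and Gm27533 at 4.63 TPM, and both were listed at 0 in the other 8 cells. Prdm14 and Sox21 have 1 annotated transcript each.

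**Figure D4:**
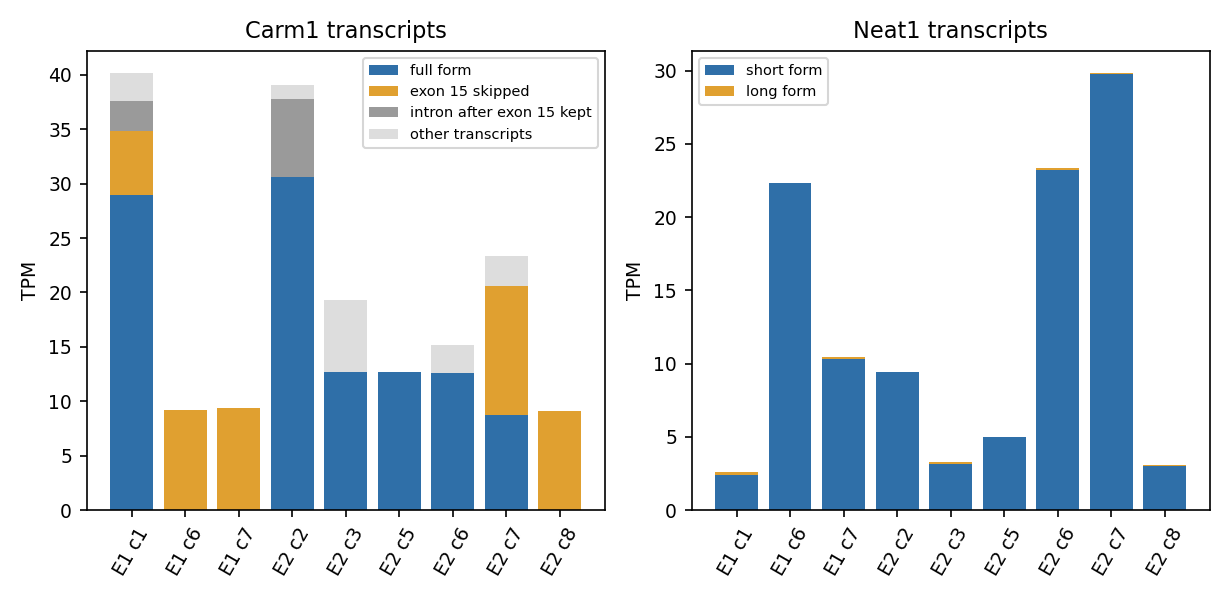
TPM of the transcripts of Carm1 (left) and Neat1 (right) stacked for each blastomere (E, embryo; c, cell), so that the height of a bar is the TPM of the gene. The bars of embryo 1 cells 6 and 7 and embryo 2 cell 8 consist of the form without exon 15 alone, at 9.17, 9.34 and 9.14 TPM, while the short form makes up nearly the whole of each Neat1 bar.

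The DNA of the same cells gave the replication state of each locus in bins of 40 kb. Embryo 1 cells had percentage replication scores of 0.00385% to 3.54%, and embryo 2 cells were in S-phase with scores of 62.4% to 80.5%. The study placed the embryo 1 cells, whose copy number was uniform, in G1 or G2/M phase, so their state of -1 cannot tell DNA before replication from DNA that was fully replicated. The bins of Carm1, Neat1, Prdm14 and Sox21 had this state in all 3 cells of embryo 1. The 2 bins of Carm1 were replicated in all 6 cells of embryo 2, as were 48.7% of the bins with a state in each of these 6 cells. The 2 bins of Neat1, the 2 bins of Prdm14 and the single bin of Sox21 were replicated in 5 of the 6 cells and unreplicated in embryo 2 cell 6, which had the lowest score. This pattern was found in 13.5% of the bins.

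Within 200 kb on each side, all 12 bins around Carm1 were replicated in each cell of embryo 2. Around Prdm14, 0 of 12 bins were replicated in cell 6, and around Neat1, 1 of 12 was, whereas the other 5 cells had all 12. Around Sox21, cell 6 had 4 of 11 bins replicated and cell 2 had 7 of 11. RNA levels in the unreplicated cell 6 were within the range of its sisters, with Neat1 at 23.4 TPM, the second highest of embryo 2, Sox21 at 5.24 TPM, the third highest, and Prdm14 listed at 0 as in 2 other cells of embryo 2. With 1 cell in the unreplicated state, state and cell cannot be told apart.

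**Figure D5:**
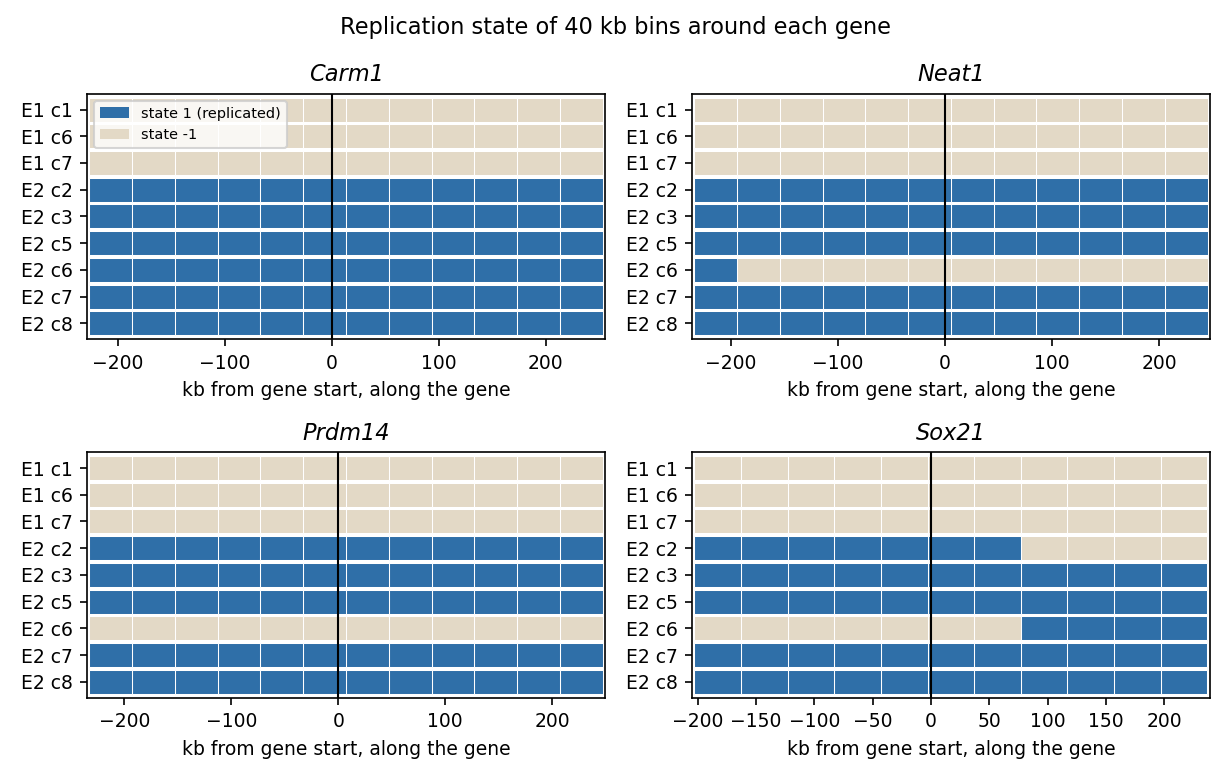
Replication state of 40 kb bins within 200 kb of each gene, with 1 row per cell (E, embryo; c, cell) and the distance from the gene start in kb along the direction of transcription. Embryo 1 rows have the state -1, which in these cells of uniform copy number does not separate G1 from G2/M phase, Carm1 is replicated in all 6 rows of embryo 2, and cell 6 of embryo 2 is unreplicated at the start of Neat1, Prdm14 and Sox21.

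Genes that work with these 4 were described from lists by function. For a 2-fold difference between embryos (at least 1 in mean log2(TPM + 1)), 7.69% of the genes tested were higher in embryo 2 and 10.7% were lower, and none of Carm1, Neat1 and Sox21 was. Of the other 8 protein arginine methyltransferases, 7 had a mean above 1 TPM, 0 differed 2-fold between embryos and 1 had a 4-fold range in embryo 2, beside 53.1% of all genes tested. This share is not matched to the level of the listed genes, many of which had a mean above 5 TPM. Among all genes above that level, 43.4% had a 4-fold range in embryo 2. Prmt1, the main asymmetric methyltransferase, ranged from 86.9 to 496 TPM, and Prmt5, which makes symmetric dimethylarginine, from 53.7 to 179 TPM. Both exceeded the highest Carm1 value in every cell. The gene counted was Prmt2, at 0 to 3.56 TPM. Prmt6, at 8.04 to 34.6 TPM over embryo 2, fell just short of the call, with a range of 1.98 on the log2(TPM + 1) scale.

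Of 8 coactivators and other partners or substrates of CARM1, all 8 had a mean above 1 TPM and 5 had a 4-fold range in embryo 2, close to the background of 53.1%. The acetyltransferase gene Ep300 ranged from 13.8 to 214 TPM, and the p160 coactivator gene Ncoa3 from 28.9 to 148 TPM. Ncoa1, another p160 coactivator gene, was the only one with a 2-fold embryo difference, higher in embryo 2 as were 7.69% of all genes tested. Its embryo 1 cells ran from 0.78 to 6.73 TPM and its embryo 2 cells from 2.97 to 9.56 TPM, so the embryos overlapped.

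Of 8 paraspeckle protein genes, all 8 had a mean above 1 TPM, 0 differed 2-fold between embryos and 3 had a 4-fold range in embryo 2, beside 53.1% of all genes tested. Hnrnpk was steady at 647 to 1059 TPM, with an SD in embryo 2 of 0.20 on the log2(TPM + 1) scale, compared with 1.26 for Neat1. Spread falls with level, and the mean was 881 TPM for Hnrnpk and 12.2 TPM for Neat1, so these SDs are not of genes of like level. The wider paraspeckle protein genes included Pspc1, at 4.97 to 35.3 TPM, and Hnrnph3, at 22.2 to 127 TPM. Of the 6 nuclear long noncoding RNAs listed, 2 had a mean above 1 TPM, Malat1 and Xist. Xist, the RNA of the inactive X chromosome, ran from 140 to 181 TPM over the cells of embryo 1 but did not exceed 0.90 TPM in those of embryo 2, and it was used to check the column labels. Eif2s3y, a gene of the Y chromosome, was listed at 0 in embryo 1 and ran from 23.05 to 84.71 TPM in embryo 2. By these 2 genes embryo 1 was female and embryo 2 male. The cells of embryo 2 were also in S-phase, whereas the study placed those of embryo 1 in G1 or G2/M phase. Embryo, sex and cell-cycle phase therefore cannot be told apart in any embryo difference given here.

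Of 6 PRDM14 partners, 5 had a mean above 1 TPM and 0 differed 2-fold between embryos, although Prdm14 itself was near 0. Cbfa2t2, the corepressor that binds PRDM14, ranged from 1.89 to 15.2 TPM and was the 1 gene with a 4-fold range in embryo 2, beside the same 53.1%. The Polycomb genes Suz12 and Ezh2 were at 155 to 381 and 151 to 370 TPM.

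Among SOXB relatives and lineage factors around SOX21, Sox3 and Sox14 were listed at 0 in every cell, Sox1 did not exceed 1.11 TPM and Sox2 did not exceed 0.60 TPM. Of these SOX genes only Sox21 exceeded 1 TPM in most cells, in 7 of 9. Of the 8 genes in this list, 4 had a mean above 1 TPM, and 0 had a 4-fold range in embryo 2 (53.1% of all genes tested). Over the cells of embryo 1, 2 of these 4 had a 4-fold range, beside 29.3% of all genes tested. Lower in embryo 2 by at least 2-fold were 2 genes, beside 10.7% of all genes tested. These were the pluripotency gene Nanog, which ranged from 18.6 to 83.0 TPM over embryo 1 cells but from 10.3 to 29.0 TPM over embryo 2 cells, and Cdx2. Cdx2, the trophectoderm factor, was at 9.80 TPM in embryo 1 cell 1, the cell with the highest Sox21, and at or below 1.22 TPM in each of the other 8 cells. Its embryo difference thus rests largely on 1 cell.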

How the data were processed

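RNA and DNA of single blastomeres were measured by scRR-seq. The labels described 13 cells, and 9 of them had columns; the other 4 were not analysed here. A further 14 columns per table had no label in the series and were not used. The authors deposited TPM of genes and of transcripts, made with Hisat and RSEM against GENCODE vM25 within ramdaq after the reads of all cells had been set to a common number, and a replication state score (1, -1 or 0 for no data) per 40 kb bin, called with AneuFinder after alignment to mm10. The submitters' processing notes name BWA 0.7.17-r1188. All 9 RNA headers named the same embryo and cell, so each was mapped by its last number, found in a single RNA title. Xist and Eif2s3y separated the columns by embryo. TPM keeps no depth, so no counting interval was given.

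Here values were taken as log2(TPM + 1), on which changes of low genes are understated. Genes entered counts at a mean above 1 TPM over the 9 cells. The 4 genes and all lists were chosen with earlier results of these data known. Named genes were the 4 genes, per list the 2 with the highest mean TPM and the 2 with the widest range in embryo 2, the 3 most similar per gene, and Xist and Eif2s3y. Ncoa1, Nanog, Cdx2, Dppa3, Ptx3, the SOXB genes at low level and the genes that overlap the 4 were named after their values were seen. Symbols and positions came from gene tables and GENCODE M21 of the same build. Lists are given by counts, with no test. Alternatives were another pseudocount or filter, other scalings, each lysis volume alone and each cell left out. A gene that the naming rule selected is not reported here. The procedure was tested on simulated data. Python 3.11.15, numpy 2.4.6, pandas 2.3.3, scipy 1.17.1 and matplotlib 3.10.9 were used.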

Additional observations from a re-analysis of the deposited data

Results flagged for a closer look

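For 30 genes, a cell far from its sisters in embryo 2 was sought. In 5 of them, the gap of 1 cell to its nearest neighbour took an unusually large part of the range. Chance alone flags about 1 group in 20, but many of these genes had been named for a wide range over the same cells. That rate does not apply to genes chosen in this way, so the count of 5 cannot be set against it. None of the 5 genes was Carm1, Neat1, Prdm14 or Sox21. Cell 8 had Eed, a Polycomb subunit, at 371.86 TPM, with the next cell at 185.79 TPM. Cell 2 had Ep300 at 214.05 TPM, with the next at 89.54 TPM. Cell 5 had Hnrnph3 at 127.07 TPM beside 56.41 TPM, and Ncoa2, a p160 coactivator gene, at 9.37 TPM beside 2.58 TPM. Cell 6 had the lowest Hnrnpk at 696.01 TPM, with the next at 925.04 TPM.

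Embryo 2 cell 6 also stood apart in replication, a mark that any locus with 1 differing cell receives, and 13.5% of bins were unreplicated in this cell alone. It had 0 replicated bins at Neat1 and at Prdm14, where each sister cell had 2, and 0 at Sox21, where each had 1. Within 200 kb it had 1 replicated bin around Neat1 and 0 around Prdm14, where each sister cell had 12.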

How the results depend on the processing

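Of 132 recomputed values, 126 stayed within a set limit. This was 1 SD between cells, the standard error of r or, for the count of genes, 1.5 times. For an SD between cells the limit was that SD itself, so no fall could pass it. The Sox21 SD of 2.73 given below, beside 1.60, thus counted among the 126. For the Carm1 form without exon 15 the limit was 47.4 percentage points. Its 5.95% in scRR3 cells and 50.1% in scRR1 cells thus also counted. For SDs and transcript percentages, the 126 are therefore no measure of stability. With the scRR3 cells alone (1 cell against 2), the embryo 2 minus embryo 1 difference was -0.68 for Prdm14 and -2.43 for Sox21. With a pseudocount of 0.1, the SD in embryo 2 was 1.61 for Prdm14 and 2.73 for Sox21, beside 0.46 and 1.60, since zeros then lie further from the other values. The count of 7253 genes with a 4-fold range fell to 3807 at a mean above 5 TPM, where 8781 genes were left. Carm1 and Neat1 gave r = 0.40 in embryo 2. Within 200 kb, every Sox21 bin was replicated in 4 cells in place of 5. Of 57 recomputed embryo differences, 22 took the other sign, all for genes whose reported difference lay between -0.22 and 0.21. Leaving out 1 cell at a time gave embryo differences of -0.13 to 0.88 for Carm1, -0.75 to 0.60 for Neat1, -0.23 to 0.35 for Prdm14 and -1.14 to 0.70 for Sox21. It gave SDs in embryo 2 of 0.49 to 0.77, 1.08 to 1.41, 0.28 to 0.52 and 1.21 to 1.78, respectively, counts of 6024 to 6530 genes, and r from -0.36 to 0.13. Sox21 fell to 1.21 without embryo 2 cell 2, where it was listed at 0. With reads of small RNAs inside Neat1 added back by length, an alternative chosen after seeing the data, its embryo difference was -0.10. No paired analysis was possible because the results come from no test and the shared replicate numbers only name cells. Depth is not kept in TPM, so levels near 0 could not be told from absence.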
